A study of Mus musculus with 6 samples.

Results

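The duplicated TRAV genes are copies of T cell receptor alpha variable genes whose names carry a D or an N after the family number, such as TRAV13D-1 and TRAV13N-1 beside TRAV13-1. Members were alpha chain (TRA) contigs, the assembled receptor transcripts of a cell, whose V gene carried such a name. Names with DV, which the alpha locus shares with the delta locus, were left out. Each contig had to be high-confidence, to rest on at least 2 unique molecular identifiers (UMIs, 1 per captured transcript) and to come from a T cell. The rule found 3111 of 7898 TRA contigs, 1256 of 3217 in WT and 1855 of 4681 in 564Igi. A J gene was named in 3043 of the 3111, and the other 68 entered no further count. The members carried 41 of the 91 TRAV genes named in the tables, 28 D copies and 13 N copies.

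Spleens of 2 mice were profiled by droplet capture with amplification of the B cell and T cell receptors, after erythroid cells bearing Ter-119 had been removed. The WT mouse was C57BL/6JRj. The other mouse was heterozygous for 564Igi, the paired alleles Igktm1(Igk564)Tik and Ightm1(Igh564)Tik on the background B6.129S4(Cg), which place rearranged kappa and heavy chain genes of an autoreactive antibody in the antibody loci. Neither allele name refers to the alpha locus, and age and sex are not given in the sources used here. Each group was 1 mouse, so nothing was tested between mice. Brackets after a share give its exact (Clopper-Pearson) 95% interval and after a difference a Newcombe interval built from those, and both cover counting error alone.

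T cell receptor contigs rested on 86409 UMIs from 30190690 reads in WT and on 114433 UMIs from 32922893 reads in 564Igi. T cells numbered 3263 in WT and 4573 in 564Igi, with 2690 and 3857 productive alpha chains at a median of 4 UMIs per chain. A D or N copy was found in 989 WT and 1425 564Igi T cells, of which 94.9% and 95.2% also had a productive beta chain, the other chain of the receptor. Only 3 of 6513 WT barcodes called B cells held a member contig in the T cell table, and 0 of 3827 564Igi ones did, which allows a share of up to 0.0784% (3 barcodes). The mice had 23 T cell barcodes in common, and 0 of them had the same alpha CDR3 in both.

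In the thymus an alpha chain is made by joining 1 of many V genes to 1 of many J genes, and the CDR3 loop that touches the antigen spans the junction. The same allele can rearrange again, each time joining a V gene farther upstream to a J gene farther downstream and deleting what lay between. In C57BL/6 mice a large stretch of the V genes is present in near-identical copies, and the D and N blocks are those copies. They lie upstream of the block that holds their unsuffixed counterparts.

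The RefSeq table of GRCm38.p6 places the D copies on chromosome 14 from 52683964 to 53082522 and the N copies from 53091346 to 53375278. The unsuffixed counterparts follow from 53390633 to 53763694. The TRAJ genes run from TRAJ61 at 54155005 to TRAJ1, which ends at 54218842, and the constant gene TRAC starts at 54220521. All 41 D and N genes are V segments and were 1471 to 784 kb upstream of the first TRAJ gene. A low TRAJ number is thus the downstream end of the J cluster, and TRAJ1 to TRAJ30 (54189866 to 54218842) is its part next to TRAC. RefSeq lists 31 D copies that are not pseudogenes, and 28 of them were named in the tables, all but TRAV6D-6, TRAV7D-6 and TRAV11D. It also lists 31 such N copies, of which 13 were named and 18 were not, among them TRAV12N-1, TRAV12N-2, TRAV12N-3, TRAV14N-1 and TRAV14N-2. Whether transcripts of those 18 genes carry a D or another name in the tables was not tested. Nor was it tested whether TRAV6N-6 and TRAV7N-6 also hold transcripts of TRAV6D-6 and TRAV7D-6. For such families a D or N name here is the deposited call, and D and N cannot be told apart.

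The copies are shown first by the start of their CDR3, the only stretch of V gene sequence in the deposited tables. The commonest first 9 bases were taken from productive chains, for 28 pairs of a copy and its counterpart. In 22 pairs these bases were the same, and in 6 pairs they differed at 1 base. The differing base is in capitals, and positions count from 1 at the 5′ end of the CDR3, with the counterpart's base first and the copy's base last.
TRAV13-1: tgtgctTtg
TRAV13D-1: tgtgctAtg
TRAV13N-1: tgtgctAtg
TRAV6-5: tgtgCtctg
TRAV6D-5: tgtgTtctg
TRAV6-6: tgTgctctg
TRAV6N-6: tgCgctctg
TRAV7-4: tgtgcagCt
TRAV7N-4: tgtgcagTt
TRAV9-4: tgtgctGtg
TRAV9N-4: tgtgctCtg

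Of the 6 differences, 5 change a residue at the base of the loop. T7A gave both TRAV13 copies methionine at the third residue of the CDR3, where TRAV13-1 chains had leucine. C5T gave TRAV6D-5 valine in place of alanine at the second residue. At the third residue, C8T gave TRAV7N-4 valine in place of alanine, and G7C gave TRAV9N-4 leucine in place of valine. T3C in TRAV6N-6 left the cysteine codon's residue as it was. A gene's own base was read from the commonest start of these same chains, so that most chains carry it follows from the definition. The counts describe how uniform each name was, and no germline sequence was used as a check. The copy's own base was present in 38 of 39 WT and 48 of 48 564Igi TRAV6N-6 chains, and the counterpart's own base in 90 of 90 and 128 of 128 TRAV6-6 chains. For TRAV9N-4 the count was 23 of 23 in both mice. For TRAV13N-1 it was 28 of 31 in WT and 31 of 33 in 564Igi, for TRAV13D-1 7 of 9 and 18 of 21, for TRAV7N-4 5 of 5 and 12 of 15, and for TRAV6D-5 8 of 9 and 15 of 15. In the other 22 pairs the first 9 bases do not distinguish the copies.

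D and N copies made up as large a part of the alpha repertoire in one mouse as in the other. They formed 1068 of 2690 productive alpha chains in WT, or 39.7% (37.8 to 41.6), and 1533 of 3857 in 564Igi, or 39.7% (38.2 to 41.3). The difference, 564Igi minus WT, was 0.0433 percentage points (-2.39 to 2.47). D copies alone formed 26.8% (25.1 to 28.5) in WT and 27.7% (26.3 to 29.2) in 564Igi. N copies formed 12.9% (11.7 to 14.3) and 12.03% (11.02 to 13.1). The 26 unsuffixed counterparts formed 41.8% (39.9 to 43.7) and 40.99% (39.4 to 42.6).

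Of the 41 genes, 34 had at least 20 productive chains over both mice and 7 had fewer. Use was uneven, from 1 chain to 225, with a median of 46. TRAV3D-3 was the most used copy, with 98 chains or 3.64% of WT chains and 127 or 3.29% of 564Igi chains. TRAV12D-3 followed with 62 chains (2.30%) in WT and 128 (3.32%) in 564Igi. TRAV16N, the most used N copy, had 85 chains in each mouse, 3.16% in WT and 2.20% in 564Igi. TRAV4D-4 had 62 (2.30%) and 100 (2.59%), TRAV12D-2 had 65 (2.42%) and 84 (2.18%), and TRAV14N-3 had 54 (2.01%) and 80 (2.07%).

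**Figure D1:**
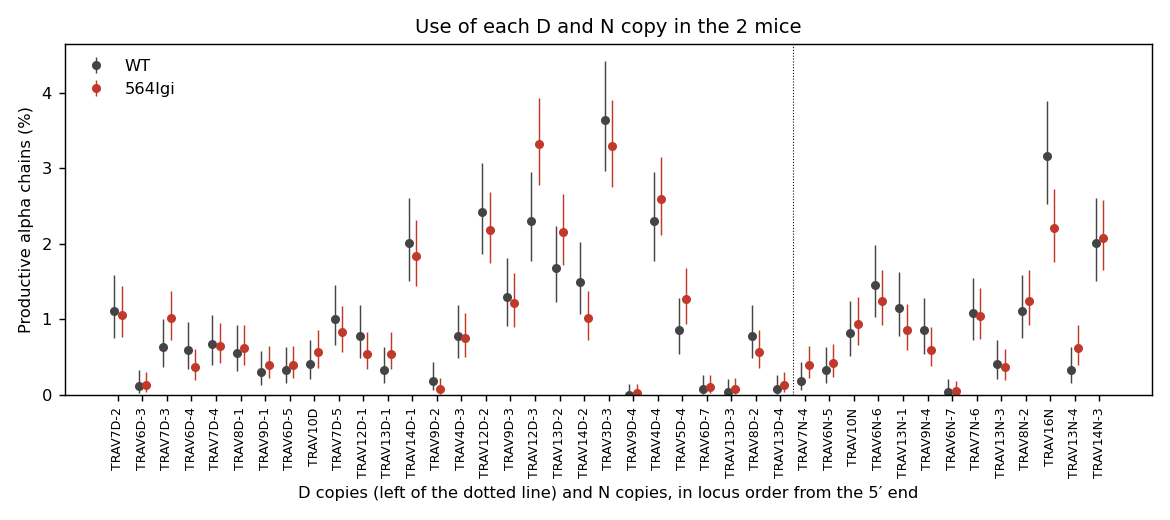
Share of productive alpha chains (%, vertical axis) that used each of the 41 D and N copies, in locus order from the 5′ end, in WT (grey) and 564Igi (red), with exact 95% intervals. TRAV3D-3 is high in both mice at 3.64% and 3.29%, and the intervals of the mice overlap for each of the 41 genes.

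TRAV13D-2 had 45 WT and 83 564Igi chains, TRAV14D-1 had 54 and 71, and TRAV9D-3 had 35 and 47. The other copies with 20 or more chains had 87 chains or fewer over both mice. At the low end, TRAV9D-4 had 0 productive chains in WT and 1 in 564Igi, TRAV6N-7 had 1 and 2, and TRAV13D-3 had 1 and 3. The order of the 34 genes by use was alike in the mice, with a Spearman rho of 0.908 across genes. That value is a description, since the genes of a mouse share its library.

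Genes were compared between the mice by a fold of 1.5 or more, among genes with at least 20 chains in either mouse. Of all 64 TRAV genes tested, 7 passed, or 10.9%, of which 5 were higher in 564Igi (7.81%) and 2 lower (3.12%). Of the 28 D and N copies tested, 3 were higher in 564Igi and 0 lower. These were TRAV13N-4 with 9 WT and 24 564Igi chains (1.86-fold by share), TRAV13D-1 with 9 and 21 (1.63-fold) and TRAV7D-3 with 17 and 39 (1.60-fold). The members' share is close to the background. The folds of the 28 members ran from 0.680 for TRAV14D-2 to 1.86, with a median of 0.963 beside 0.989 over all 64 genes. TRAV5D-4 lay just inside the limit at 1.49-fold, with 23 and 49 chains.

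Against the counterpart of the same name, the copies were the smaller part overall and the larger part of some names. The 41 genes carry 32 names once the letter is removed. With DV names left out, 26 of these had an unsuffixed counterpart in the tables. Of the 26, 17 had a D copy only, 4 an N copy only and 5 both. Unsuffixed genes with a DV name, such as TRAV4-4-DV10, were thus not counted as counterparts. TRAV16D-DV11, with 19 WT and 45 564Igi chains, was not counted as a D copy of TRAV16. Nor was TRAV14D-3-DV8, with 34 and 46, counted for TRAV14-3. The shares of a name leave such chains out. Over these 26 names, D and N copies formed 44.3% (42.1 to 46.5) of chains in WT and 44.4% (42.6 to 46.3) in 564Igi. The share per name ran from 17.6% to 68.5% in WT, with a median of 40.4%, and from 8.33% to 72.3% in 564Igi, with a median of 40.1%. The interval lay wholly above 50% in 5 names in WT (19.2% of the 26) and in 6 in 564Igi (23.1%). It lay wholly below 50% in 12 names in each mouse (46.2%).

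Names in which the copy was the more used included TRAV12-3, where TRAV12D-3 formed 60.8% (50.6 to 70.3) in WT and 72.3% (65.1 to 78.8) in 564Igi. TRAV3D-3 formed 66.2% (58.0 to 73.8) and 61.7% (54.6 to 68.3) of its name. TRAV13D-2 formed 62.5% (50.3 to 73.6) and 66.4% (57.4 to 74.6), and TRAV16N 68.5% (59.6 to 76.6) and 60.7% (52.1 to 68.8). TRAV14D-1 formed 66.7% (55.3 to 76.8) and 60.2% (50.8 to 69.1). For these 5 copies the interval was above 50% in both mice. RefSeq also lists TRAV12N-3, TRAV3N-3, TRAV13N-2 and TRAV14N-1, which the tables do not name. Whether the D names of this list also hold their transcripts was not tested. TRAV6N-6 was the less used, with 30.2% (22.5 to 38.9) in WT and 27.3% (20.8 to 34.5) in 564Igi beside TRAV6-6. TRAV9D-1 formed 18.2% (8.19 to 32.7) and 20.3% (11.8 to 31.2). TRAV5D-4 formed 23.5% (15.5 to 33.1) of its name in WT and 41.9% (32.8 to 51.4) in 564Igi. For TRAV5D-4 the mice's intervals overlap only narrowly, and the difference between mice was not tested.

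The clearest difference between copies and counterparts was in the J gene they were joined to. Chains with a D or N copy used TRAJ1 to TRAJ30, the J genes next to TRAC, in 70.0% (67.2 to 72.8) of cases in WT and 68.8% (66.4 to 71.1) in 564Igi. Their counterparts did so in 38.1% (35.3 to 41.04) and 37.1% (34.7 to 39.5). The difference was 31.9 percentage points (27.8 to 35.9) in WT and 31.7 (28.3 to 35.0) in 564Igi. D and N copies had like shares, with 70.1% and 69.8% in WT and 68.4% and 69.6% in 564Igi. N minus D was -0.311 points (-6.42 to 5.61) in WT and 1.23 (-3.98 to 6.29) in 564Igi. TRAV genes without any copy in the tables stood between, at 59.8% (52.5 to 66.8) and 56.2% (50.1 to 62.2). They include TRAV11, the gene of the invariant natural killer T cell chain, with 35 of 37 and 64 of 68 chains in TRAJ1 to TRAJ30, and without it had 51.6% (43.5 to 59.6) and 43.7% (36.8 to 50.8). This group was mixed by position. Over both mice together, its genes upstream of the D block ran from 60.9% (TRAV6-2) to 75.6% (TRAV3-1). TRAV17 and TRAV19, nearer the J cluster than the counterparts, had 4.17% and 5.97%. A share like that of the copies was thus not particular to them. Of the DV genes left out, TRAV14D-3-DV8 and TRAV16D-DV11 had 67.5% and 67.2%. The median TRAJ number was 22 in WT and 23 in 564Igi for the copies and 33 in both for the counterparts.

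The whole J profile was moved, not only its midpoint. TRAJ1 to TRAJ10, the last J genes of the cluster, were used by 16.9% (14.7 to 19.3) of WT and 15.98% (14.2 to 17.9) of 564Igi copy chains, against 3.82% (2.78 to 5.11) and 4.49% (3.52 to 5.63) of counterpart chains. TRAJ51 to TRAJ61, the first J genes, were used by 2.34% (1.52 to 3.44) and 2.48% (1.76 to 3.39) of copy chains, against 9.60% (7.94 to 11.5) and 10.1% (8.62 to 11.6). TRAJ21 to TRAJ30 was the commonest group for the copies, with 30.5% and 30.9%. TRAJ31 to TRAJ40 was the commonest for the counterparts, with 29.96% and 31.6%.

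**Figure D2:**
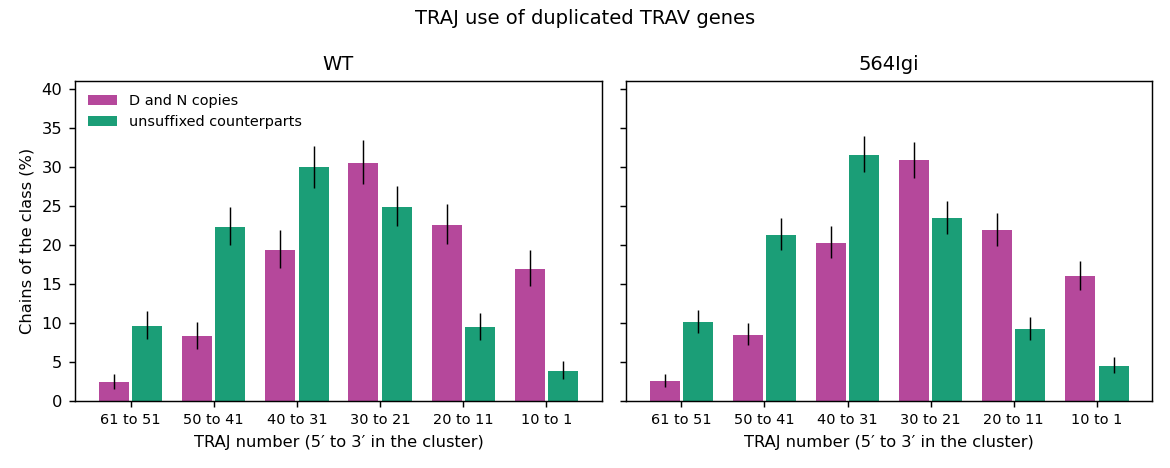
Share of chains (%, vertical axis) by TRAJ group, from the upstream to the downstream end of the J cluster, for D and N copies (magenta) and unsuffixed counterparts (green) in each mouse, with exact 95% intervals. Copies exceed counterparts in the 3 downstream groups and fall below them in the 3 upstream groups in both mice, with 16.9% against 3.82% at TRAJ1 to TRAJ10 in WT.

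The shift was not the same for every name. Of the 26 names, 19 had the higher TRAJ1 to TRAJ30 share in the copies in both mice, 0 had it in the counterpart in both, and 7 went opposite ways. The intervals of copy and counterpart did not overlap in 12 names in WT (46.2% of the 26) and 13 in 564Igi (50%), always with the copy higher. The median difference over names was 31.2 points in WT and 30.6 in 564Igi.

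Large differences were found in names whose counterpart lies near the J cluster. TRAV14-3, the last of the block, used TRAJ1 to TRAJ30 in 5.56% (0.680 to 18.7) of WT chains and in 0 of 52 564Igi chains, which allows up to 5.77% (3 chains), while TRAV14N-3 did so in 66.7% (52.5 to 78.9) and 63.8% (52.2 to 74.2). TRAV16 had 10.3% and 7.27% against 62.4% and 57.6% for TRAV16N. TRAV7-6 had 9.09% and 6.25% against 65.5% and 75% for TRAV7N-6. TRAV3-3 had 12% and 21.5% against 80.6% and 78.0% for TRAV3D-3. TRAV5-4 had 17.3% and 5.88% against 60.9% and 67.3% for TRAV5D-4. All 5 had intervals that did not overlap in either mouse. TRAV12-2 in WT, with a difference of 60.3 points, and TRAV9-4 and TRAV14-2 in 564Igi, with 67.7 and 63.0, were in the same range. With a minimum of 5 UMIs the interval of the difference included 0 for TRAV16 in both mice, at 36 points (-19.8 to 63.6) and 41.3 (-2.20 to 65.7), and for TRAV7-6 in WT, at 37.5 (-12.0 to 68.9). With TRAJ20 as the limit it included 0 for TRAV5-4 in WT, at 13.4 (-1.01 to 35.0).

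In some names of the farther part of the block the copies and counterparts were close. In WT, TRAV7D-5 used TRAJ1 to TRAJ30 in 40.7% (22.4 to 61.2) of chains and TRAV7-5 in 37.1% (21.5 to 55.1). In 564Igi the shares were 46.9% (29.1 to 65.3) and 45.2% (33.5 to 57.3). TRAV6-5 and its copies differed by 2.56 points (-27.0 to 28.8) in WT and 0.293 (-23.8 to 24.1) in 564Igi. TRAV7D-2, the first gene of the D block, had 66.7% and 73.2% against 68.4% and 60.2% for TRAV7-2. TRAV6-6 also lies in the farther part, and there TRAV6N-6 was higher by 28.7 points (9.87 to 43.7) and 29.7 (12.5 to 44.1). The intervals of the close names are wide and mean that differences of about 20 points were not detectable at this depth.

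**Figure D3:**
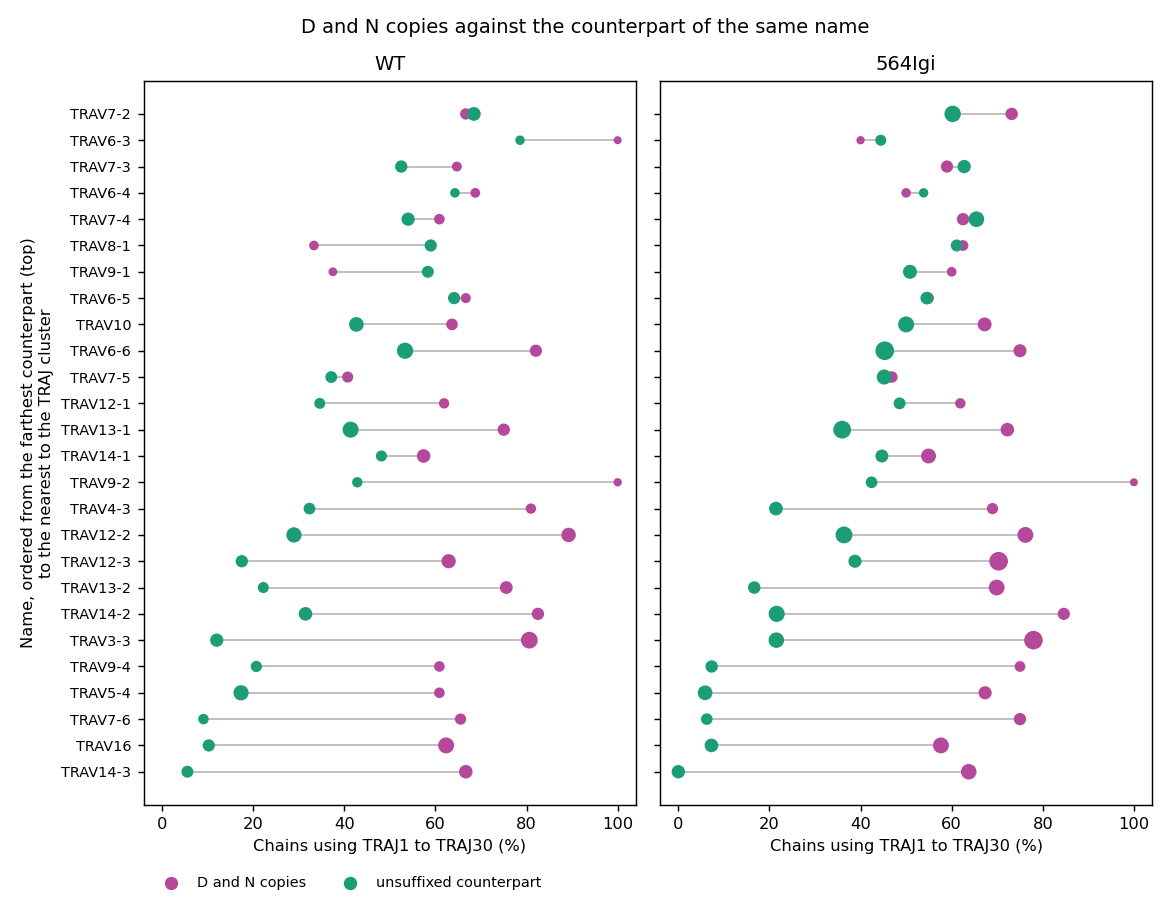
TRAJ1 to TRAJ30 share (%, horizontal axis) of D and N copies (magenta) and of the unsuffixed counterpart (green) for the 26 names in each mouse, ordered by the counterpart's distance from the J cluster, with larger points for more chains. The copies lie to either side of the counterpart among the upper names, and to its right in the lower names, by up to 68.6 points (TRAV3-3 in WT) and 68.8 points (TRAV7-6 in 564Igi).

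The 26 names were split at the median distance of the counterpart from the J cluster, 605 kb, after the values had been seen. In the 13 names with the farther counterpart, copies had 64.1% (58.3 to 69.7) in WT and 64.0% (59.2 to 68.6) in 564Igi and counterparts 52.3% (48.2 to 56.3) and 50.95% (47.5 to 54.4). That is a difference of 11.9 points (4.77 to 18.7) and 13.03 (7.14 to 18.8). In the 13 names with the nearer counterpart, copies had 71.5% (67.7 to 75.1) and 69.7% (66.5 to 72.8) and counterparts 22.3% (18.8 to 26.0) and 21.3% (18.4 to 24.5). There the difference was 49.3 points (43.9 to 54.2) and 48.4 (43.9 to 52.6).

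Among the counterparts the share followed position closely. Across the 26 genes, the Spearman rho between distance to the J cluster and TRAJ1 to TRAJ30 share was 0.947 in WT and 0.916 in 564Igi. Across the 22 D copies with 20 or more chains it had the opposite sign, -0.565 and -0.662. Across the 12 such N copies it was 0.357 and 0.501. These describe genes, by deposited name, that share a library and a chromosome, and are given without a test.

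**Figure D4:**
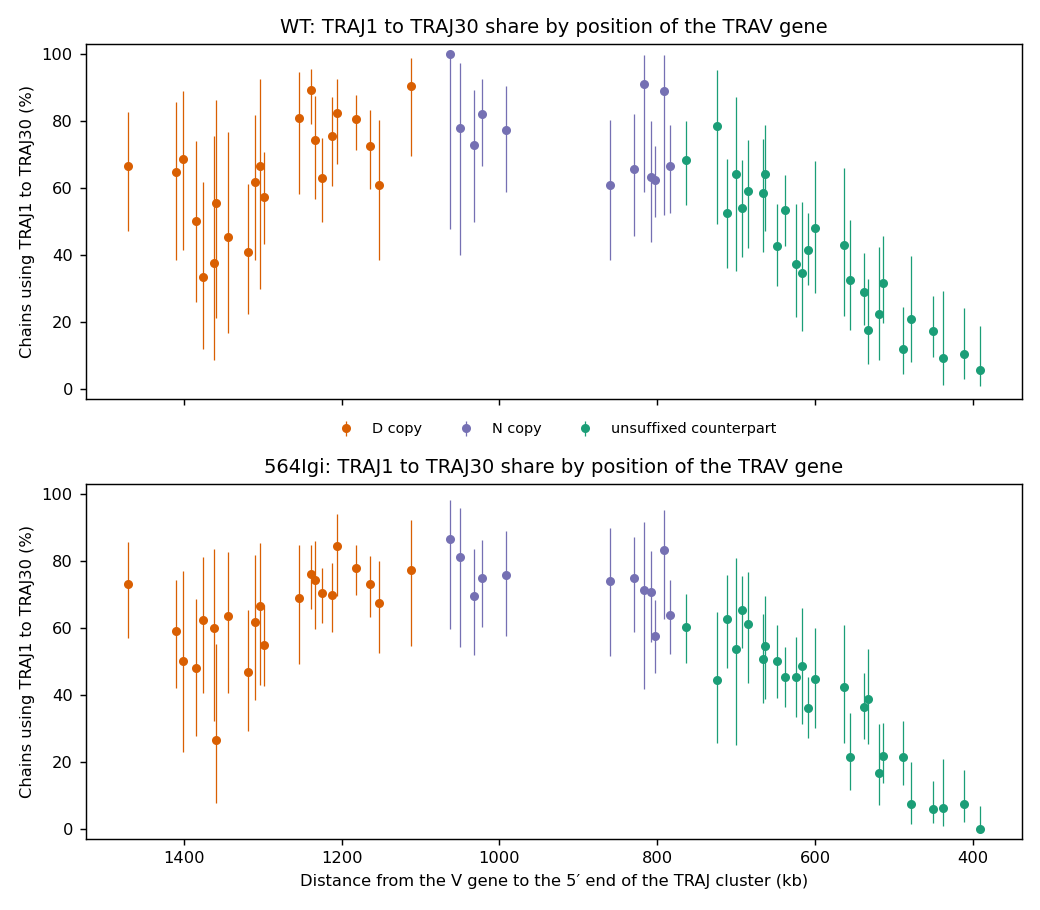
TRAJ1 to TRAJ30 share (%, vertical axis) against the distance of the V gene from the first TRAJ gene (kb, horizontal axis, upstream to the left) for genes with 20 or more chains over both mice, with exact 95% intervals. Counterparts (green) go from 78.6% or below at the far end to 5.56% in WT and 0% in 564Igi at the near end, N copies (purple) are all above 50%, and D copies (orange) are lower in their upstream part.

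The D block itself fell into 2 parts, split after the values were seen at its median position, 1258 kb from the J cluster. Its 14 upstream genes used TRAJ1 to TRAJ30 in 56.8% (50.3 to 63.1) of chains in WT and 57.5% (52.1 to 62.7) in 564Igi. Its 14 downstream genes did so in 76.9% (72.9 to 80.6) and 73.6% (70.3 to 76.8). The difference was 20.1 points (12.6 to 27.6) and 16.2 (9.93 to 22.4). By deposited D name, genes farther from the J cluster thus used the downstream J genes less. Many D names, such as TRAV3D-3, TRAV12D-2 and TRAV14D-1, have an N copy in RefSeq that the tables do not name. Whether they also hold N transcripts was not tested, so position and such pooling cannot be told apart here.

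Shares over both mice were ranked among the 34 copies with 20 or more chains. The 5 of lowest share were all in the upstream D part. They were TRAV6D-5 with 37.5% of 24 chains, TRAV7D-5 with 44.1% of 59, TRAV7D-4 with 48.8% of 43, TRAV8D-1 with 51.3% of 39 and TRAV9D-1 with 52.2% of 23. Of these, 3 were uneven between the mice, with intervals that overlap. TRAV6D-5 had 55.6% (21.2 to 86.3) in WT and 26.7% (7.79 to 55.1) in 564Igi, TRAV8D-1 33.3% (11.8 to 61.6) and 62.5% (40.6 to 81.2), and TRAV9D-1 37.5% (8.52 to 75.5) and 60% (32.3 to 83.7). The 5 of highest share were TRAV7N-4 with 90% of 20 chains, TRAV13N-4 with 84.8% of 33, TRAV8D-2 with 83.7% of 43, TRAV14D-2 with 83.5% of 79 and TRAV12D-2 with 81.9% of 149. Among large genes TRAV12D-2 stood high in WT, with 89.2% (79.1 to 95.6), beside 76.2% (65.7 to 84.8) for 564Igi. The order of the 34 genes was similar in the mice, with a Spearman rho of 0.775 across genes.

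D and N copies of the same name could be set side by side in TRAV10, TRAV13-1, TRAV6-5 and TRAV7-4, 4 names in which each copy had at least 10 chains over both mice together, a limit set after the values were seen. In WT alone TRAV7N-4 had 5 chains and TRAV13D-1, TRAV6D-5 and TRAV6N-5 had 9 each. In these names the N copies used TRAJ1 to TRAJ30 in 77.6% (65.8 to 86.9) of 67 WT chains and 76% (66.4 to 84.0) of 100 564Igi chains. The D copies did so in 53.2% (38.1 to 67.9) of 47 and 53.0% (41.7 to 64.1) of 83, and the counterparts in 48.0% (41.5 to 54.4) of 244 and 49.5% (44.0 to 55.1) of 325. N minus D was 24.4 points (5.55 to 42.2) in WT and 23.0 (8.36 to 36.8) in 564Igi. The D copies of these 4 names all lie in the upstream part of the D block, 1303 to 1385 kb from the J cluster, where the share was lower. Over all D and N copies, N minus D was -0.311 points in WT and 1.23 in 564Igi. D minus counterpart was 5.24 points (-11.2 to 21.3) and 3.47 (-9.10 to 15.8). The D copies of the 4 names went different ways. Over both mice together, TRAV13D-1 had 66.7% against 38.3% for TRAV13-1 and TRAV10D 57.6% against 46.8% for TRAV10, while TRAV6D-5 had 37.5% against 59.0% for TRAV6-5 and TRAV7D-4 48.8% against 61.1% for TRAV7-4. The N copies were above the counterpart in each of the 4, with 76.6% for TRAV13N-1, 70.7% for TRAV10N, 80% for TRAV6N-5 and 90% for TRAV7N-4. The fifth name with both copies, TRAV9-4, was left out because TRAV9D-4 had 1 productive chain.

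A cell can carry a transcript from each of its alpha alleles, so the partner contig in cells with exactly 2 alpha contigs, productive or not, was read as a second measurement. Beside a D or N copy, the partner used TRAJ1 to TRAJ30 in 64.5% (59.9 to 68.8) of 467 contigs in WT and 65.2% (61.7 to 68.7) of 745 in 564Igi. Beside a counterpart it did so in 43.6% (39.1 to 48.2) of 470 and 41.7% (37.9 to 45.6) of 655. The difference was 20.8 points (14.4 to 27.1) and 23.6 (18.3 to 28.7). The partner was itself a D or N copy in 44.1% (39.6 to 48.7) and 49.9% (46.3 to 53.6) beside a copy, against 37.0% (32.6 to 41.6) and 35.6% (31.9 to 39.4) beside a counterpart. Among partners that were not D or N copies the difference in TRAJ1 to TRAJ30 share remained, at 17.2 points (8.65 to 25.4) in WT and 17.1 (10.1 to 24.0) in 564Igi. A cell with 2 member contigs enters once for each. A cell with a copy and a counterpart enters both groups, as 174 WT and 233 564Igi cells did. The intervals treat all these contigs as independent.

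The CDR3 itself was much alike in copies and counterparts. Its length was 13.5 ± 1.46 residues (SD over 1068 chains) in WT and 13.4 ± 1.45 (1533 chains) in 564Igi for D and N copies, and 13.4 ± 1.63 and 13.5 ± 1.62 for counterparts. D copies averaged 13.4 and 13.3 residues and N copies 13.7 and 13.6. TRAV16N chains were long, with 14.8 ± 1.42 residues in WT and 14.7 ± 1.27 in 564Igi, and so were those of TRAV16, with 14.8 ± 1.35 and 15.4 ± 1.16. A net charge of 1 or more, counting arginine and lysine minus aspartate and glutamate, was found in 58.3% (55.3 to 61.3) and 58.2% (55.7 to 60.7) of copy chains and 58.0% (55.1 to 60.9) and 59.9% (57.4 to 62.3) of counterpart chains. The SD describes the chains of 1 library and is not an error between mice.

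Most member chains were seen in 1 cell. Distinct combinations of V gene, J gene and CDR3 nucleotides made up 96.7% of D and N chains in WT and 97.7% in 564Igi. Chains found in 2 or more cells held 5.15% (3.90 to 6.65) of member chains in WT and 3.85% (2.94 to 4.94) in 564Igi, against 2.13% (1.37 to 3.16) and 3.35% (2.52 to 4.36) for counterparts. In WT the copies' share thus lay above the counterparts' interval, and in 564Igi the intervals overlap. The WT share of the copies rests on 20 distinct chains in 55 cells, the largest in 8. That of the counterparts rests on 12 in 24 cells, the largest in 2. The intervals count cells with the same chain as independent and so do not cover the effect of a few large groups. The 3 member chains held by most cells of each mouse are printed below, because they show what was repeated. Capitals mark the bases that match the commonest CDR3 start of the V gene, and the lower-case rest was not divided further.
WT TRAV16N-TRAJ16: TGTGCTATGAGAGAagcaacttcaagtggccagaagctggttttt
WT TRAV16N-TRAJ17: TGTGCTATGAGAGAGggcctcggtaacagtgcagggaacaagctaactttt
WT TRAV3D-3-TRAJ22: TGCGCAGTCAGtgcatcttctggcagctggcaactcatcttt
564Igi TRAV4D-4-TRAJ11: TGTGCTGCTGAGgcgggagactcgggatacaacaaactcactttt
564Igi TRAV14D-2-TRAJ22: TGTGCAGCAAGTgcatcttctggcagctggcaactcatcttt
564Igi TRAV12D-3-TRAJ32: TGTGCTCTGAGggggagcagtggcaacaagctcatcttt

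The largest WT chain, TRAV16N-TRAJ16, was in 8 cells, and all 8 had the same beta chain, with TRBV17. TRAV16N-TRAJ17 was in 4 WT cells with 1 beta chain. The largest 564Igi chain, TRAV4D-4-TRAJ11, was in 6 cells with 1 beta chain, with TRBV19, and TRAV12D-3-TRAJ32 in 4 cells with 1 beta chain. The TRAJ22 chains behaved otherwise. TRAV3D-3-TRAJ22 was in 4 WT cells and TRAV14D-2-TRAJ22 in 4 564Igi cells, and in each case the 4 cells had 4 different beta chains.

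Sequences found in both mice were also led by TRAJ22. Of 2481 distinct CDR3 nucleotide sequences of member chains, 32 were present in both mice, in 39 WT and 42 564Igi chains. TRAJ22 was used by 6 of the 32, beside 7.11% of all member chains. They were short, with 12.5 ± 1.14 residues (SD over 32 sequences) against 13.4 ± 1.45 over all 2481, and 17 of the 32 occurred with more than 1 D or N gene. The 2 TRAJ22 sequences printed above were among them, with 3 WT and 6 564Igi cells for the TRAV14D-2 sequence, which also occurred with TRAV14D-1 and TRAV14N-3, and 4 and 2 for the TRAV3D-3 sequence. Unsuffixed genes carried some of them too, TRAV14-1 and TRAV14-2 the first and TRAV3-1 and TRAV3-3 the second, and 5 of the 32 also occurred outside the D and N copies. The next 4 by number of cells follow, with capitals for the start that all genes named on the line share with the sequence.
TRAV8D-1 and TRAV8N-2 with TRAJ22: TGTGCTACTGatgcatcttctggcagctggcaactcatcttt
TRAV3D-3 with TRAJ9: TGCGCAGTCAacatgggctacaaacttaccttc
TRAV3D-3 with TRAJ30: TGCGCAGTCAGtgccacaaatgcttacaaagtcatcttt
TRAV4D-4 and TRAV9D-3 with TRAJ12: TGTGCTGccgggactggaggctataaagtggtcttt

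These 4 were held by 1, 1, 1 and 2 WT cells and 3, 2, 2 and 1 564Igi cells, in the order printed. The invariant alpha chain of natural killer T cells, TRAV11 joined to TRAJ18, was found in 31 WT and 61 564Igi chains, all under the unsuffixed name. TRAV11D was not among the names in the tables, so no D copy of it is described.

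Nonproductive contigs, those the tables do not call productive, were about as common among copies as among counterparts in WT and somewhat commoner in 564Igi. They formed 12.7% (10.9 to 14.7) of 1224 WT and 15.7% (14.1 to 17.5) of 1819 564Igi member contigs, against 11.97% (10.2 to 13.9) of 1278 and 13.1% (11.6 to 14.7) of 1819 counterpart contigs. The difference was 0.773 points (-1.86 to 3.42) in WT and 2.64 (0.319 to 4.96) in 564Igi. D copies had 13.9% and 16.9% and N copies 10.3% and 12.9%. Nonproductive member contigs had a median of 3 UMIs in WT and 2 in 564Igi, against 4 in productive ones. With a minimum of 5 UMIs the share was 4.90% and 5.10% for copies and 2.94% and 3.80% for counterparts. A productive alpha chain was also present in the cell for 71.8% and 67.8% of the nonproductive member contigs. Only 36 of the 156 in WT and 65 of the 286 in 564Igi had a CDR3. Among contigs marked True or False, the False share was higher in copies in both mice. It was 2.997% (2.07 to 4.18) against 1.66% (1.003 to 2.58) in WT, where the intervals overlap. In 564Igi it was 3.83% (2.94 to 4.89) against 2.04% (1.41 to 2.86).

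TRAV13D-3 stood apart from the other copies with 20 or more contigs, of which the next highest had 36.5%. Of its 30 contigs 26 were nonproductive, or 86.7% (69.3 to 96.2), with 8 of 9 in WT and 18 of 21 in 564Igi. Only 3 of the 26 used TRAJ1 to TRAJ30, and their median TRAJ number was 44.5. RefSeq also lists an unsuffixed TRAV13-3, which is not among the names in the tables, and whether these contigs belong to it was not tested. TRAV9D-4 was similar on fewer contigs, with 13 of 14 nonproductive, and it was singled out after its values were seen. Without these 2 genes the members' share was 11.96% (10.2 to 13.9) in WT and 14.4% (12.8 to 16.2) in 564Igi. The difference from the counterparts was then -0.00813 points (-2.61 to 2.61) and 1.35 (-0.934 to 3.64), and the interval for 564Igi included 0. Both genes were picked for their high shares and no counterpart was left out, so the members' share could only fall.

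The ranking covers copies with 20 or more contigs. After TRAV13D-3, the highest nonproductive shares were those of TRAV13N-4 with 36.5% of 52 contigs and TRAV3D-3 with 25.5% of 302. TRAV13D-2 followed with 25.1% of 171 and TRAV13N-3 with 24.2% of 33. TRAV3D-3 had 18.3% in WT and 30.2% in 564Igi. TRAV6D-4 had 0 of 30, which allows up to 10% (3 contigs), and TRAV7N-4 had 0 of 20, which allows up to 15% (3 contigs). Copy and counterpart had similar shares in several names. TRAV3-3 had 25% beside the 25.5% of TRAV3D-3, and TRAV13-2 had 22.5% beside the 25.1% of TRAV13D-2. TRAV16 had 4.08% beside 4.49% for TRAV16N. Across the 26 names the Spearman rho between copies and counterpart was 0.692, over both mice together, as a description. The interval of the difference excluded 0 in 2 names, TRAV12-3 and TRAV4-3, with the copy lower in both.

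**Figure D5:**
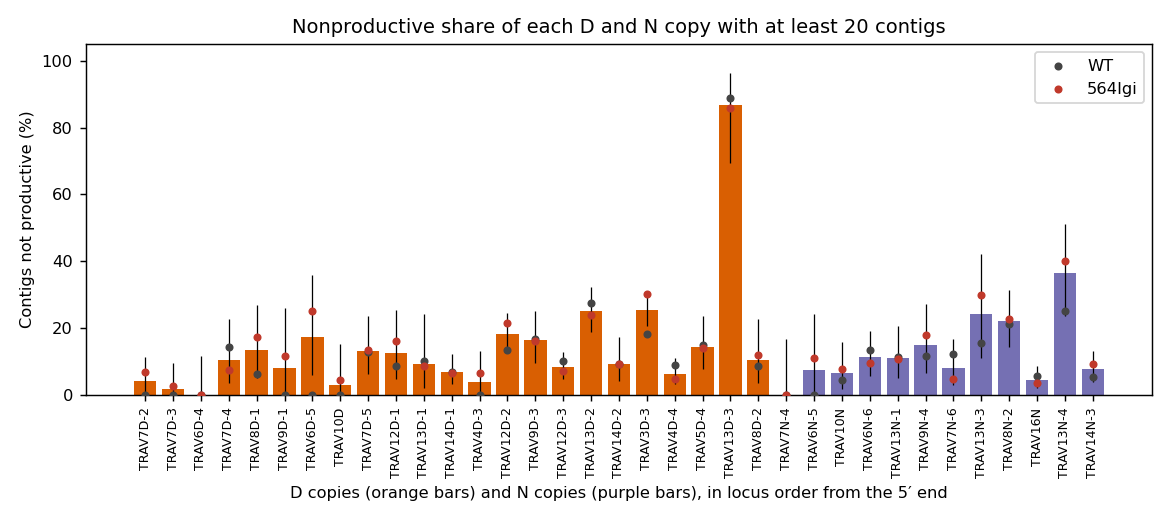
Share of contigs that were not productive (%, vertical axis) for each D copy (orange) and N copy (purple) with 20 or more contigs, in locus order, as bars over both mice together with exact 95% intervals, and as points for WT (grey) and 564Igi (red). TRAV13D-3 stands at 86.7%, and the next highest is TRAV13N-4 at 36.5%.

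The difference in J use was also present in the nonproductive contigs. Nonproductive D and N contigs used TRAJ1 to TRAJ30 in 66.0% (58.0 to 73.4) of 156 cases in WT and 65.0% (59.2 to 70.6) of 286 in 564Igi. Nonproductive counterparts did so in 30.1% (22.9 to 38.0) of 153 and 39.1% (32.8 to 45.6) of 238. The intervals of copies and counterparts did not overlap in either mouse.

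The beta chains paired with D and N copies were close to those paired with counterparts. Of the TRBV genes with at least 20 cells, 1 of 18 in WT and 2 of 20 in 564Igi had a difference in share whose interval excluded 0, and none did so in the same direction in both mice. The differences ran from -1.80 to 2.02 points in WT and from -1.68 to 1.80 in 564Igi.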

How the data were processed

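The 4 receptor tables were used, a B cell and a T cell table for each of 2 mice. Gene expression was not analysed here. Cell Ranger 3.0.2 and the mm10 build are listed in the submitters' processing notes, with no role given. The deposited tables give raw read and UMI counts per contig, per the file headers, beside cell calls, a confidence flag, gene names and the CDR3. The way near-identical TRAV copies were assigned is not given in the sources read, so names were taken as deposited. Contig lengths were used as given.

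T cells were barcodes with a cell call in the T cell table and none in the same mouse's B cell table, which left out 345 WT and 373 564Igi barcodes as possible doublets. No doublet caller was run. Contigs were high-confidence with at least 2 UMIs. Productive chains gave usage, TRAJ position and CDR3, and nonproductive meant not marked productive. A gene was called between mice at 1.5-fold with at least 20 chains in either mouse. With 1 mouse per group there was no test. Gene positions come from RefSeq's table of GRCm38.p6, the assembly of mm10.

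Genes named were those with at least 20 productive chains over both mice, those called between mice, the 5 of highest and of lowest TRAJ1 to TRAJ30 share, the 5 of highest nonproductive share, and TRAV11. J shares were ranked among genes with at least 20 productive chains, and nonproductive shares among those with at least 20 contigs. Sequences were up to 3 per mouse by number of cells and up to 6 found in both mice. Members and lists were chosen with earlier results of these data known. The scripts were tested on simulated data. Tables were handled in pandas 2.3.3 and NumPy 2.4.6 under Python 3.11.15, intervals came from SciPy 1.17.1, and figures were drawn with matplotlib 3.10.9.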

Additional observations from a re-analysis of the deposited data

Results flagged for a closer look

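In 7 of the 26 names, the TRAJ1 to TRAJ30 share of the D and N copies was above that of the counterpart in one mouse and below it in the other. The difference between the mice was not tested, and the interval of each value below includes 0. Copies minus counterpart was 21.4 points in WT and -4.44 in 564Igi for TRAV6-3, which had 3 and 5 copy chains. It was 4.46 and -3.85 for TRAV6-4, 12.2 and -3.77 for TRAV7-3 and 6.87 and -2.93 for TRAV7-4. It was -1.75 in WT and 12.96 in 564Igi for TRAV7-2, -25.6 and 1.39 for TRAV8-1 and -20.8 and 9.15 for TRAV9-1. All 7 counterparts lie in the part of the block farther from the J cluster.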

How the results depend on the processing

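The TRAJ1 to TRAJ30 difference between copies and counterparts stayed between 29.9 and 32.7 points in WT and between 28.8 and 31.8 in 564Igi over 9 settings with that limit, the reported one included. With TRAJ20 as the limit, copies had 39.5% in WT and 37.9% in 564Igi and counterparts 13.2% and 13.7%, and TRAV9-2 in WT, with 5 copy chains, went to -3.81 points. Among the 27 differences by name and mouse whose interval excluded 0, that limit made 2 more include it, besides TRAV9-2, and a minimum of 5 UMIs made 9. The latter gave 564Igi a member share of 42.1%, 46.3% within names, and TRAJ1 to TRAJ30 shares of 71.8% for copies and 43.0% for counterparts. It gave nonproductive shares of 4.90% and 5.10% for copies and 2.94% and 3.80% for counterparts. Counting only contigs marked False as nonproductive gave 2.997% and 3.83% against 1.66% and 2.04%. Cells were also thinned to 10 UMIs, with 2753 WT and 3797 564Igi cells kept and 510 and 776 shallower ones left out. With the minimum of 2 UMIs this gave 8.24% and 10.5% against 8.26% and 9.27%. With any UMI counted, each of these shares stayed inside its reported interval. At that depth the nonproductive share thus depended on the UMI minimum. Genes called between mice were 0 of all and 0 of the members at 2-fold, 11 and 5 with at least 10 chains, 18 and 9 with no minimum, and 4 of all in cells with exactly 1 alpha and 1 beta chain. Of the alternatives for these results, 141 kept the reported result and 27 did not. A share kept it inside its reported interval, and mean CDR3 length within 1 SD over chains. A difference kept it when its interval still excluded 0 with the same sign, or still included 0, whatever its size. A count kept it within 1.5 times. Nonproductive shares over distinct chains were not run, since most nonproductive contigs have no CDR3. Leaving out TRAV13D-3 and TRAV9D-4, and counting any UMI after thinning, were chosen after seeing the data. No paired analysis was possible because each group was 1 mouse.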
